A study of Mus musculus with 12 samples.

Results

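The 10 genes described here encode the AMPA receptor and its auxiliary subunits: *Gria1*, *Gria2*, *Gria3*, *Gria4*, *Cacng2*, *Cacng3*, *Cacng8*, *Cnih2*, *Cnih3* and *Shisa9*. They were chosen by symbol and not by their values, although earlier results of these data were known. All 10 were found among the 19312 genes measured. RNA from 12 male mice, 3 in each of 4 groups, was sequenced at postnatal day 25. WT-Veh and WT-Mem mice carried intact *Shank2* and KO-Veh and KO-Mem mice a constitutive, homozygous deletion of *Shank2* exons. The labels give the strain as C57BL/6N for all 4 groups. WT-Mem and KO-Mem mice received memantine, a blocker of the NMDA receptor channel, at 20 mg/kg by mouth 2 times each day between postnatal days 7 and 21, and WT-Veh and KO-Veh mice received 0.1% saccharin without memantine on the same days. Each brain was sequenced by itself. The labels name whole brain, whereas the methods of the study name the forebrain left after removal of the cerebellum and the brain stem beneath it.

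AMPA receptors are the glutamate-gated channels that carry most of the fast excitatory current in the forebrain, and each is a tetramer of GluA subunits encoded by the *Gria* genes. Channels that contain the RNA-edited GluA2 subunit, the product of *Gria2*, pass little calcium, whereas channels without it are calcium permeable. Auxiliary subunits bind the tetramer, carry it to the surface and set its gating: the transmembrane AMPA receptor regulatory proteins encoded by *Cacng2*, *Cacng3* and *Cacng8*, the cornichons encoded by *Cnih2* and *Cnih3*, and the CKAMP44 protein encoded by *Shisa9*. Shank2 is a scaffold of the excitatory postsynapse, to which these receptors are anchored through other scaffold proteins.

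*Shank2* itself was measured first. It stood at 8248, 7427 and 8325 normalized counts in the WT-Veh mice, at 7936, 8548 and 7156 in the WT-Mem mice, at 3053, 3006 and 2723 in the KO-Veh mice, while the KO-Mem mice were at 2817, 2706 and 3178, so that no KO mouse reached the lowest WT mouse. A normalized count is the authors' estimated read count of a gene after scaling between mice, and values are listed in the order of replicates 1, 2 and 3 throughout. The log2 fold change of *Shank2* was -1.45 ± 0.07 (SE, limma adjusted p = 1.77e-05) in vehicle-treated mice and -1.44 ± 0.08 (adjusted p = 0.000186) in memantine-treated mice.

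Libraries looked close to each other in depth. The median of the values above 0 and under 1.5 in a mouse, read as the worth of 1 read, was 0.872 to 1.13 normalized counts. Estimated counts can be fractional, so this is an approximation only. Between 61 and 88 genes were at 0 in a mouse. KO-Veh replicate 3 stood apart in cerebellar markers, whose summed value was 3135 normalized counts against at most 509 in any other mouse; the granule cell marker *Gabra6* was at 253.9 there and at most 12.9 elsewhere. Of the 5 hindbrain markers 1 was in the table, the glycine transporter gene *Slc6a5*. It was at 180.3 in WT-Mem replicate 3, 85.6 in WT-Veh replicate 3 and 59.9 in KO-Veh replicate 3. In the other mice it lay between 12.9 and 35.2. The 5 excitatory neuron markers were present in all mice and summed to 41722 to 52288 in WT and 46335 to 51284 in KO mice, and the 5 GABAergic markers summed to 21489 to 25060 and 24225 to 25969. The 5 oligodendrocyte markers summed to 275381 to 383236 in WT and 224433 to 285715 in KO mice, the 5 oligodendrocyte precursor markers to 9709 to 10412 and 7188 to 9171, the 5 microglial markers to 5672 to 6914 and 4486 to 5730, the 5 astrocyte markers to 46568 to 50463 and 44459 to 48328, the 5 hippocampal markers to 6590 to 8109 and 7891 to 9015, and the 5 markers of striatal projection neurons to 11958 to 13737 and 11497 to 13772. Of these sums only that of the precursors did not overlap between WT and KO mice. Its largest term was *Gpr17*, at 5369 to 6134 normalized counts in WT and 2953 to 5107 in KO mice. Such a separation of the genotypes was seen in 4.06% of all genes. *Cspg4*, *Neu4* and *C1ql1* overlapped, and *Pdgfra* was level, with means of 2202 in WT-Veh, 2196 in WT-Mem, 2238 in KO-Veh and 2189 in KO-Mem mice. Since whole tissue was sequenced, fewer cells of a type and less RNA per cell cannot be told apart for any gene below, and the part that these cell markers have in the values of the AMPA receptor genes was not tested.

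All 10 AMPA receptor genes were well expressed, with means over the 12 mice from 1587 normalized counts for *Cacng8* to 18194 for *Gria2*. Levels were compared between genes per kilobase of exon, counted over the union of the exons of each gene in GRCm38. On this scale *Cnih2* was highest, at 3429.6 ± 373 normalized counts per kilobase (SD, n = 12 mice), followed by *Gria1* at 2091 ± 153 and *Gria2* at 1170.2 ± 109. *Cacng3* (985 ± 98.8), *Cnih3* (729.7 ± 26.8), *Gria3* (724 ± 39.5) and *Cacng8* (677 ± 31.3) lay in the middle, and *Gria4* (474 ± 34.7), *Cacng2* (443 ± 28.2) and *Shisa9* (420.0 ± 20.8) were lowest. The ranges over mice separated *Cnih2* from *Gria1*, *Gria1* from *Gria2*, and *Cacng8* from *Gria4*, while each other neighbouring pair in this order overlapped. With the longest coding transcript as the length, *Gria3* moved from 724 to 1375 normalized counts per kilobase and from the sixth to the fourth place, since its exon union of 9859 bases is longer than that transcript, of 5192 bases.

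**Figure D1:**
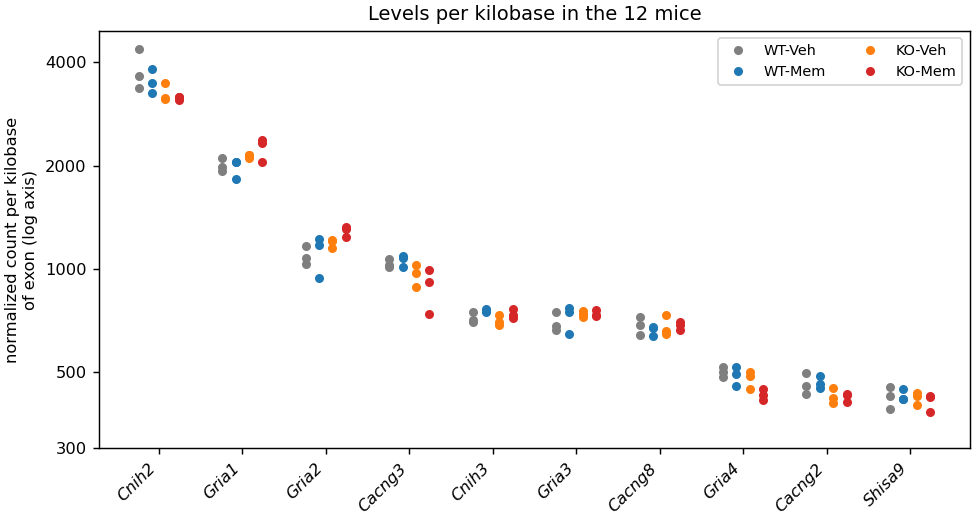
Level of each AMPA receptor gene in each of the 12 mice, in normalized counts per kilobase of exon on a log axis, with 1 point per mouse coloured by group. *Cnih2* lies highest, between 3116 and 4364, and *Shisa9* lowest, between 383 and 452.

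Among the 4 core subunits, *Gria1* made up 46.9% of the summed level per kilobase of exon union, *Gria2* 26.2%, *Gria3* 16.2% and *Gria4* 10.7%. With the longest coding transcript as the length, the shares were 38.2%, 29.4%, 23.1% and 9.27% in the same order. They thus depend on the length chosen, and the shares that follow use the exon union. The share of *Gria4* was 11.7% ± 0.267 in WT-Veh mice, 11.4% ± 0.417 in WT-Mem mice, 10.5% ± 0.672 in KO-Veh mice and 9.16% ± 0.742 in KO-Mem mice (SD, n = 3 each), and the share of *Gria2* was 25.4% ± 1.36, 25.8% ± 1.29, 26.2% ± 0.496 and 27.4% ± 0.366 in the same order. The KO-Mem mice thus held the highest mean *Gria2* share and the lowest mean *Gria4* share. The ratio of *Gria2* to *Gria4* normalized counts was 5.39 ± 0.402 in WT-Veh mice, 5.60 ± 0.473 in WT-Mem mice, 6.16 ± 0.475 in KO-Veh mice and 7.40 ± 0.503 in KO-Mem mice (SD, n = 3), with all KO-Mem mice (6.86 to 7.85) above the other 9 (4.95 to 6.70). This ratio was chosen after the values were seen and was not tested, and how often ratios of other genes separate the KO-Mem mice was not counted.

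*Gria1* encodes GluA1, the subunit that is inserted into synapses during long-term potentiation, and lies on the plus strand at chr11:57011387-57330244. Positions are those of GRCm38, and all 10 genes are annotated as protein-coding. The value of a gene is the estimated abundance of its transcripts summed to the gene. *Gria1* stood at 11972, 12692 and 11622 normalized counts in the WT-Veh mice, at 12399, 12404 and 11053 in the WT-Mem mice, at 13010.3, 12716 and 12948 in the KO-Veh mice, while the KO-Mem mice were at 14344, 14088 and 12355. All 3 KO-Veh mice were above the WT-Veh mice by a narrow margin, and KO-Mem replicates 1 and 2 were the highest of all, whereas KO-Mem replicate 3 lay among the WT mice.

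*Gria2* encodes GluA2 and lies on the minus strand at chr3:80681450-80802835. It stood at 18064, 16105 and 16754 normalized counts in the WT-Veh mice, at 18217, 18939.6 and 14657 in the WT-Mem mice, at 18772, 17837 and 18868 in the KO-Veh mice, while the KO-Mem mice were at 20515, 20301 and 19292. All 3 KO-Mem mice were above every mouse of the other groups, a separation whose share over all genes was not counted. WT-Mem replicate 3 was the lowest by a wide margin.

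*Gria3*, the X-linked gene of GluA3 at chrX:41400854-41678601 on the plus strand, varied little between groups. Its means were 6880 ± 454 normalized counts in WT-Veh mice, 7110 ± 652 in WT-Mem mice, 7265 ± 149.8 in KO-Veh mice and 7290 ± 147.5 in KO-Mem mice (SD, n = 3), and the lowest mouse was WT-Mem replicate 3, at 6366.

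*Gria4* encodes GluA4, a subunit with fast kinetics that many interneurons carry, and lies on the minus strand at chr9:4417896-4796234. It stood at 3153, 3257 and 3051 normalized counts in the WT-Veh mice, at 3256, 3119 and 2859.55 in the WT-Mem mice, at 2803, 3073 and 3160.2 in the KO-Veh mice, while the KO-Mem mice were at 2614, 2709 and 2814. The 4 lowest mice were the 3 KO-Mem mice and KO-Veh replicate 1.

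Of the genes of the transmembrane AMPA receptor regulatory proteins, *Cacng2* (chr15:77991748-78120028, minus strand) encodes stargazin, which is mutated in the stargazer mouse. It stood at 2727, 2504 and 2375 normalized counts in the WT-Veh mice, at 2475, 2547 and 2683 in the WT-Mem mice, at 2319, 2468 and 2237 in the KO-Veh mice, while the KO-Mem mice were at 2246, 2367 and 2375, so that the WT-Mem mice were above all KO mice and the WT-Veh mice were not. How many of all genes had this pattern was not counted. The antisense gene *A730060N03Rik* overlaps 323 exon bases of *Cacng2*, and its mean was 175 normalized counts.

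*Cacng3* (chr7:122670492-122769393, plus strand) is expressed mainly in forebrain neurons and lies 21.2 Mb from *Shank2* on the same chromosome. It stood at 2849, 2811 and 2971 normalized counts in the WT-Veh mice, at 2988, 3027 and 2811 in the WT-Mem mice, at 2704, 2845 and 2462 in the KO-Veh mice, while the KO-Mem mice were at 2049.85, 2536 and 2758. KO-Mem mice spread widely, with replicate 1 far below the other 11 mice and replicate 3 close to the WT mice.

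*Cacng8* (chr7:3390683-3415648, plus strand) encodes a regulatory protein that is abundant in the hippocampus. Its group means were nearly level, at 1602 ± 99.8 normalized counts in WT-Veh mice, 1554 ± 50.7 in WT-Mem mice, 1593 ± 115 in KO-Veh mice and 1600.4 ± 39.2 in KO-Mem mice (SD, n = 3).

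Of the cornichon genes, *Cnih2* (chr19:5092868-5098521, minus strand) encodes the cornichon best known from hippocampal AMPA receptors, where it slows their deactivation. It stood at 4617, 4983 and 5974 normalized counts in the WT-Veh mice, at 4764, 4457 and 5248 in the WT-Mem mice, at 4294, 4772 and 4306 in the KO-Veh mice, while the KO-Mem mice were at 4325, 4266 and 4334. The KO-Mem mice lay close together and below all WT mice, which was not counted over all genes, and WT-Veh replicate 3 was the highest. *Cnih3*, its close paralog (chr1:181352628-181460641, plus strand), had the lowest coefficient of variation of the 10 genes, 3.67%, with means of 1979 ± 73.2 in WT-Veh mice, 2074 ± 23.9 in WT-Mem mice, 1942 ± 65.5 in KO-Veh mice and 2034 ± 64.2 in KO-Mem mice (SD, n = 3).

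*Shisa9* (chr16:11984113-12270902, plus strand) encodes CKAMP44, which modulates short-term plasticity and is known from dentate granule cells. Its means were 2212 ± 165 normalized counts in WT-Veh mice, 2237 ± 92.2 in WT-Mem mice, 2204 ± 93.6 in KO-Veh mice and 2153 ± 124 in KO-Mem mice (SD, n = 3), and the groups overlapped in all comparisons. Over the 12 mice the coefficient of variation of the 10 genes ran from 3.67% to 10.9% for *Cnih2*, with a median of 6.85%, beside a median of 7.17% for the 4390 genes in the same range of means.

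**Figure D2:**
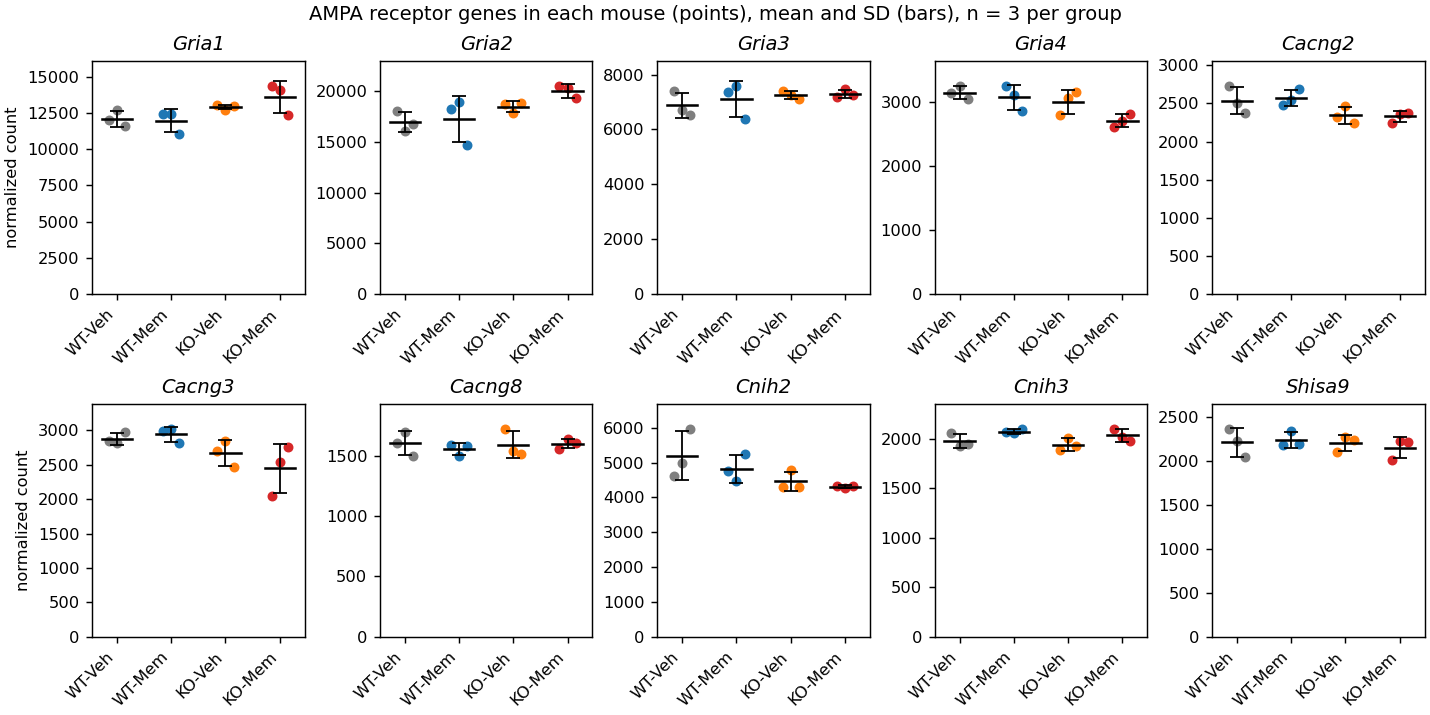
Normalized counts of the 10 AMPA receptor genes in each mouse (points), with the mean and SD of each group (bars, n = 3), on axes that start at 0. The KO-Mem mice hold the highest *Gria2* values, 19292 to 20515, and *Cnih2* values between 4266 and 4334 that lie below all WT mice. Such separations were not counted over all genes.

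The 5′ flanks of *Gria2* and *Cnih2* are shown because these were the genes with the smallest adjusted p among those with a higher and a lower mean in KO mice over both treatments. RefSeq promoter windows of GRCm38.p6 were matched to 7 of the 10 genes, all but *Gria1*, *Gria3* and *Shisa9*, and the 250 bases before the annotated start are given 5′ to 3′ on the strand of the gene. Capitals mark GGGCGG, the Sp1 family box, or TGCGCA, the core of the NRF1 site, on either strand. The *Gria2* flank is chr3:80802836-80803085 and the *Cnih2* flank chr19:5098522-5098771, both on the minus strand.
Gria2: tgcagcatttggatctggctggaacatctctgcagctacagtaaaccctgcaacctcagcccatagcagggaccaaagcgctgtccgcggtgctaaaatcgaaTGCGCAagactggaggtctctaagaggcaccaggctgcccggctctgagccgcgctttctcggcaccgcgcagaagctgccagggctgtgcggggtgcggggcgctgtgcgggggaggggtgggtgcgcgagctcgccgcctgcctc
Cnih2: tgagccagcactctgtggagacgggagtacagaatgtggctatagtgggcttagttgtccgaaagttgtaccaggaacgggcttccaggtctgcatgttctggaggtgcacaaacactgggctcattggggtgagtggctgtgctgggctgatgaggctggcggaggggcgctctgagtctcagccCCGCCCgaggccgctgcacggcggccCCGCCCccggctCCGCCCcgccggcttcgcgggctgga
The *Gria2* flank held 1 TGCGCA, found in 6.43% of the 32851 windows of this length, and no GGGCGG. The *Cnih2* flank held 3 copies of GGGCGG, all in the opposite orientation, and *Cnih3* was the other gene with this box, which 32.7% of all windows hold. TGACGTCA, the cyclic AMP response element (1.55% of windows), and TTCAGCACC, a core part of the REST site (0.301%), were in none of the 7 windows. The windows of *Cacng2*, *Cacng3* and *Cacng8* lie inside the gene spans given above, so they do not cover the flank before the start of those spans. The search reports letters only, not binding.

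Comparing KO-Veh with WT-Veh mice (Veh-K/W transcripts) addressed the baseline difference between the genotypes. The 3 *Gria* genes *Gria1*, *Gria2* and *Gria3* had higher means in KO-Veh mice and the other 7 genes lower means, but all differences were small. By limma on log2 values with Benjamini-Hochberg adjustment, none of the 10 genes passed an adjusted p of 0.05, as against 0.0283% of the 17671 genes tested, and log2 fold changes ran from -0.21 to 0.12 with adjusted p from 0.332 up. *Cnih2* alone had an unadjusted p under 0.05, at a log2 fold change of -0.21 ± 0.09 (SE, limma adjusted p = 0.332), where 14.4% of all genes did. *Gria1* alone did not overlap between the groups, where 20.4% of all genes did not, so neither count stood above that of genes at large. The log2 fold change of *Cnih2* was -0.11 ± 0.07 without WT-Veh replicate 3, its highest mouse, and -0.19 ± 0.11 without KO-Veh replicate 3, the mouse with cerebellar markers. The median log2 fold change was -0.02 over the 10 genes and 0.00 over all genes.

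Comparing KO-Mem with WT-Mem mice (Mem-K/W transcripts) asked how the genotypes differed after memantine. *Gria1* and *Gria2* had higher means, and *Gria4*, *Cacng3* and *Cnih2* lower means, in KO-Mem mice, each with an unadjusted p under 0.05 and none with an adjusted p under 0.05. The log2 fold change was 0.18 ± 0.07 (SE, limma adjusted p = 0.195) for *Gria1* and 0.22 ± 0.09 (adjusted p = 0.194) for *Gria2*. It was -0.18 ± 0.07 (adjusted p = 0.188) for *Gria4*, -0.28 ± 0.10 (adjusted p = 0.173) for *Cacng3* and -0.16 ± 0.07 (adjusted p = 0.230) for *Cnih2*. These 5 of 10 stand beside 21% of the 17646 genes tested, and the adjusted test called 0.068% of all genes. *Gria2* was higher without overlap, and *Cacng2*, *Cacng3*, *Cnih2* and *Gria4* lower without overlap, which is 5 of 10 genes beside 26.2% of all genes. Leaving out KO-Mem replicate 3 brought *Gria1* (0.25 ± 0.07, adjusted p = 0.0450) and *Cacng3* (-0.37 ± 0.10, adjusted p = 0.0410) under the threshold, along with 10.8% of all genes. Other mice moved values the other way: the log2 fold change was 0.11 ± 0.05 for *Gria2* and -0.10 ± 0.06 for *Cnih2* without WT-Mem replicate 3, and -0.15 ± 0.07 for *Cacng3* without KO-Mem replicate 1. Mem-K/W and Veh-K/W share no mouse, and 9 of the 10 genes, all but *Cacng8*, had the same sign in both, as did 70.0% of the 17396 genes tested in both.

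**Figure D3:**
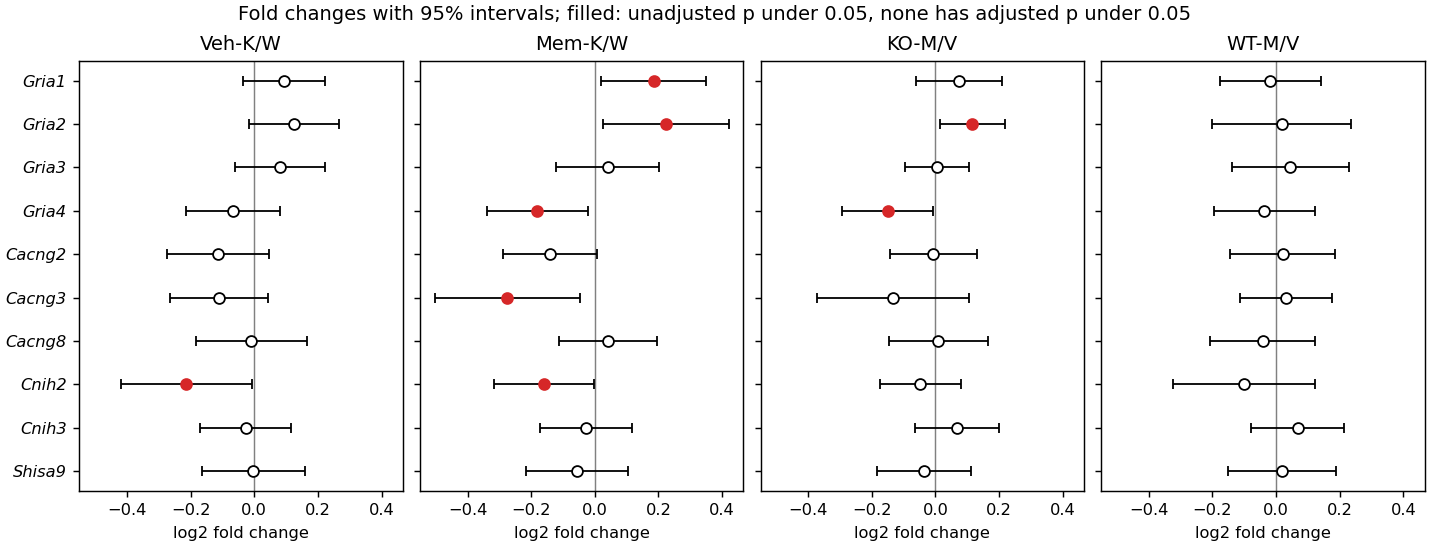
Log2 fold changes of the 10 AMPA receptor genes with 95% confidence intervals in 4 comparisons (6 mice each), where filled points have an unadjusted p under 0.05. There are 5 filled points in Mem-K/W, 2 in KO-M/V, 1 in Veh-K/W and 0 in WT-M/V, and no gene has an adjusted p under 0.05.

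Comparing KO-Mem with KO-Veh mice (KO-M/V transcripts) addressed the effect of memantine in *Shank2*-KO mice. No gene passed the adjusted test. *Gria2* was higher in all KO-Mem mice than in any KO-Veh mouse, with a log2 fold change of 0.12 ± 0.05 (SE, limma adjusted p = 0.555). *Gria4* had a log2 fold change of -0.15 ± 0.06 (adjusted p = 0.557), with overlap between the groups. These 2 genes had an unadjusted p under 0.05, as did 8.88% of the 17707 genes tested, and the adjusted test called 0% of all genes and none of the 10. *Gria2* was the only gene of the 10 without overlap, beside 13.9% of all genes. Without KO-Veh replicate 3 the log2 fold changes were 0.13 ± 0.05 for *Gria2* and -0.11 ± 0.07 for *Gria4*. The 95% intervals of the 10 genes together spanned log2 fold changes from -0.37 to 0.22.

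Comparing WT-Mem with WT-Veh mice (WT-M/V transcripts) addressed the effect of memantine in WT mice. The AMPA receptor genes differed little, with log2 fold changes from -0.10 to 0.07 and adjusted p of at least 0.978. The widest was *Cnih2*, at -0.10 ± 0.10 (SE, limma adjusted p = 0.978), and it became 0.00 without WT-Veh replicate 3, the mouse with the highest *Cnih2*, -0.05 without WT-Mem replicate 2, -0.16 without WT-Mem replicate 3 and -0.18 without WT-Veh replicate 1. None of the 10 had an unadjusted p under 0.05 (3.97% of the 17564 genes tested), none passed the adjusted test by limma (0.0114%), and none was without overlap (9.34%). The 95% intervals of the 10 genes together spanned -0.32 to 0.24 on the log2 scale.

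Comparing KO-Mem with WT-Veh mice (KO-M/WT-V transcripts) asked whether treated KO mice differed from untreated WT mice. *Gria1*, *Gria2*, *Gria4*, *Cacng3* and *Cnih2* had an unadjusted p under 0.05, beside 25.9% of the 17662 genes tested. The KO-Mem mice are those of Mem-K/W and the WT-Veh mice those of Veh-K/W, so the comparisons are not independent. The log2 fold change was 0.17 ± 0.07 (SE, limma adjusted p = 0.188) for *Gria1* and 0.24 ± 0.07 (adjusted p = 0.0658) for *Gria2*. It was -0.22 ± 0.07 (adjusted p = 0.0868) for *Gria4*, -0.24 ± 0.10 (adjusted p = 0.170) for *Cacng3* and -0.26 ± 0.09 (adjusted p = 0.112) for *Cnih2*. None passed, whereas 3.37% of all genes did. *Gria2* was higher and *Cacng3*, *Cnih2* and *Gria4* were lower without overlap, which is 4 of 10 beside 31.1% of all genes. In 1 fit of all 12 mice *Gria4* passed (-0.22 ± 0.07, adjusted p = 0.0490), and without KO-Mem replicate 3 *Gria2* (0.27 ± 0.07, adjusted p = 0.0422) and *Cacng3* (-0.34 ± 0.10, adjusted p = 0.0499) did, with 11.7% and 14.1% of all genes passing in these fits. In the other direction, *Cacng3* was at -0.12 ± 0.08 without KO-Mem replicate 1 and *Cnih2* at -0.15 ± 0.06 without WT-Veh replicate 3. In this comparison 4 of 5 oligodendrocyte markers and 1 of 5 astrocyte markers were called lower in KO-Mem mice.

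Comparing WT-Mem with KO-Veh mice (WT-M/KO-V transcripts) asked whether treated WT mice resembled untreated KO mice. *Cacng3* had the largest difference, a log2 fold change of 0.14 ± 0.07 (SE, limma adjusted p = 0.570), or 0.08 ± 0.07 without KO-Veh replicate 3. *Cacng2* and *Cnih3* were higher and *Gria1* was lower in WT-Mem mice without overlap, which is 3 of 10 beside 14.9% of all genes. No gene of the 10 had an unadjusted p under 0.05 by limma (8.94% of the 17648 genes tested) or passed the adjusted test (0.0227%).

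Averaging the genotype difference over both treatments used all 12 mice. At an unadjusted p under 0.05 there were 6 of the 10 genes, *Gria1* and *Gria2* with higher and *Gria4*, *Cacng2*, *Cacng3* and *Cnih2* with lower means in KO mice, beside 29.4% of the 17655 genes tested. None reached an adjusted p of 0.05, although 10.5% of all genes did. For *Gria2* the log2 fold change was 0.17 ± 0.06 (SE, limma adjusted p = 0.0671), a mean 12.8% higher in KO mice, and for *Gria1* 0.14 ± 0.05 (adjusted p = 0.0732), or 10.1% higher. It was -0.19 ± 0.06 (adjusted p = 0.0655) for *Cnih2*, -0.19 ± 0.07 (adjusted p = 0.0705) for *Cacng3*, -0.13 ± 0.05 (adjusted p = 0.0935) for *Cacng2* and -0.12 ± 0.05 (adjusted p = 0.101) for *Gria4*. The remaining genes, *Gria3*, *Cacng8*, *Cnih3* and *Shisa9*, had adjusted p from 0.430 to 0.854. None of the 10 separated all 6 KO from all 6 WT mice, as 4.06% of all genes did. In the same comparison 4 of 5 oligodendrocyte markers, 2 of 5 astrocyte markers, 1 of 5 precursor markers and 1 of 5 microglial markers were called lower in KO mice, and 2 of 5 GABAergic markers higher. Of the 5 hippocampal markers 1 was called higher and 1 lower.

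Calls in this averaged comparison turned on single mice. Without KO-Mem replicate 3, *Gria1* (0.17 ± 0.04, adjusted p = 0.0167) and *Cacng3* (-0.24 ± 0.06, adjusted p = 0.0163) passed, together with 18.5% of all genes. Without WT-Mem replicate 2, *Gria2* passed (0.21 ± 0.06, adjusted p = 0.0456), and without WT-Veh replicate 1, *Cnih2* did (-0.23 ± 0.06, adjusted p = 0.0340). The share of all genes passing in these fits is not given here. Over the 19 settings of this comparison the number of all genes called ran from 528 to 3263, so these calls need not be particular to the named genes. Without KO-Veh replicate 3, the mouse with cerebellar markers, the log2 fold changes were 0.14 for *Gria1*, 0.17 for *Gria2*, -0.14 for *Gria4*, -0.11 for *Cacng2*, -0.16 for *Cacng3* and -0.17 for *Cnih2*, with adjusted p from 0.119 to 0.210.

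The memantine difference averaged over genotypes was widest for *Gria4*, at a log2 fold change of -0.09 ± 0.05 (SE, limma adjusted p = 0.607). None of the 10 had an unadjusted p under 0.05 by limma (8.68% of 17655 genes), none passed the adjusted test (0%), and none separated the 6 treated from the 6 untreated mice (0.17% of genes). The interaction, which tests whether the genotype difference itself differs between the treatments, was widest for *Cacng3*, at -0.17 ± 0.13 (SE, limma adjusted p = 0.947). It was -0.04 ± 0.10 without KO-Mem replicate 1 and -0.26 ± 0.12 without KO-Mem replicate 3. None of the 10 had an unadjusted p under 0.05 (4.76% of genes) or an adjusted p under 0.05 (0%). A difference between the treatments was therefore not shown for any of the 10 genes, including *Gria2* and *Gria4*, and the 95% intervals of the interaction reached from -0.45 to 0.35.

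The AMPA receptor genes did not vary together across the 12 mice. Of the 45 pairs, 20 had a Pearson correlation of log2 values above 0, and the median was -0.04. The closest pairs were *Gria2* with *Gria3* (r = 0.82) and *Gria1* with *Gria2* (r = 0.81), and the most opposed were *Gria3* and *Gria2* with *Cnih2* (r = -0.79 and -0.78) and *Gria1* with *Cacng3* (r = -0.74). Core subunits other than *Gria4* thus varied against *Cnih2* across mice, and *Gria4* varied with *Cacng3* (r = 0.66). Over 17655 genes, those most like *Gria1* were *Grem1* and *Klf13* (r = 0.964 each), those most like *Gria2* *Phip* (0.982) and *Kcnd3* (0.981), those most like *Gria3* *Glg1* (0.973) and *Dgkh* (0.968), and those most like *Gria4* *Hdac9* (0.940) and *Gucy2g* (0.921). The mice share groups and libraries, so these correlations describe the 12 mice only.

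Transcript length moved with some of these genes. For each mouse, the median log2 deviation of genes with at least 7131 exon bases was taken minus that of genes with at most 2178. This difference was -0.207 in WT-Mem replicate 3, -0.132 in WT-Veh replicate 3 and -0.0800 in WT-Veh replicate 2, and between -0.00869 and 0.0643 in the other 9 mice, which include all 6 KO mice. Across the 12 mice it had r = 0.935 with *Gria3*, 0.913 with *Gria2* (15548 exon bases, the longest of the 10) and 0.730 with *Gria1*, and r = -0.831 with *Cnih2* (1369 bases, the shortest). *Gria4* had r = -0.112. WT-Mem replicate 3 and WT-Veh replicate 3, lowest in this difference, were also highest in the hindbrain marker *Slc6a5*, and a link between these was not tested. After centring each mouse within 20 bins of transcript length, a step added after seeing the data, the genotype difference averaged over treatments was 0.11 ± 0.03 (SE, limma adjusted p = 0.0521) for *Gria2* and -0.13 ± 0.05 (adjusted p = 0.101) for *Cnih2*, smaller than without it. For *Gria4* it was -0.14 ± 0.04 (adjusted p = 0.0603), and none of the 10 genes passed in any comparison. Without WT-Mem replicate 3 the *Gria2* difference was 0.12 ± 0.04 (adjusted p = 0.0907) on the authors' scale.

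**Figure D4:**
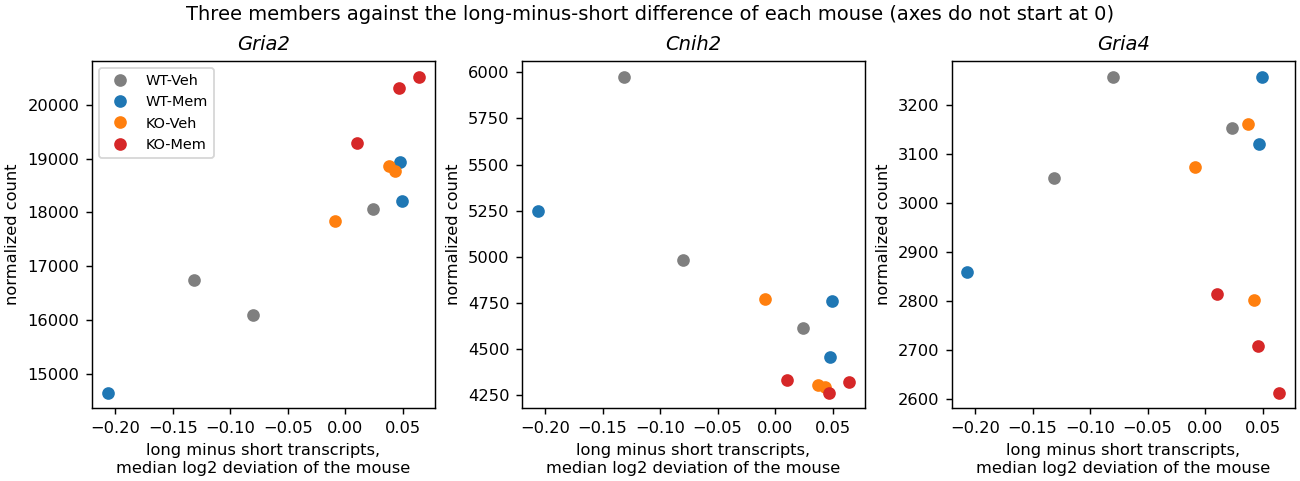
Normalized counts of *Gria2*, *Cnih2* and *Gria4* in each of the 12 mice (vertical axes, not from 0) against the median log2 deviation of long minus short transcripts in that mouse (horizontal axis). *Gria2* goes up (r = 0.913) and *Cnih2* down (r = -0.831) along this axis, while *Gria4* (r = -0.112) shows no such slope, with the KO-Mem mice low at 2614 to 2814 normalized counts.

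The other genes of AMPA receptor biology were counted as 3 lists. Of 9 other auxiliary subunit genes, 1 fell in KO mice in the comparison averaged over treatments: *Prrt1*, whose product SynDIG4 is an AMPA receptor binding protein, with a log2 fold change of -0.22 ± 0.05 (SE, limma adjusted p = 0.0245). Over all genes 10.5% were called in this comparison, so 1 of 9 is close to the share of genes at large. Its means were 4245 ± 431 normalized counts in WT-Veh mice, 3944 ± 237 in WT-Mem mice, 3461 ± 196 in KO-Veh mice and 3557 ± 126 in KO-Mem mice (SD, n = 3). All 6 KO mice, at most 3675, were below all 6 WT mice, at least 3739, a separation that 4.06% of all genes had. The call was lost under 6 of 19 alternative settings: without the variance trend (adjusted p = 0.0653) and on leaving out WT-Veh replicate 2 (0.0516), KO-Veh replicate 1 (0.0545), KO-Veh replicate 3 (0.0713), KO-Mem replicate 1 (0.0643) or KO-Mem replicate 2 (0.0518).

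Of 10 trafficking, anchoring and editing genes, 1 fell in the same comparison: *Olfm2*, an olfactomedin found in AMPA receptor complexes, with a log2 fold change of -0.23 ± 0.05 (SE, limma adjusted p = 0.0220). This count too is close to the 10.5% of all genes called. Its means were 3632 ± 83.7 normalized counts in WT-Veh mice, 3556 ± 139 in WT-Mem mice, 3227 ± 136 in KO-Veh mice and 2930.1 ± 363 in KO-Mem mice (SD, n = 3), again with no overlap between the genotypes (4.06% of all genes). The call was lost under 4 of 19 alternative settings: without the variance trend (adjusted p = 0.0603) and on leaving out KO-Veh replicate 3 (0.0646), KO-Mem replicate 1 (0.0590) or KO-Mem replicate 2 (0.0589). *Prrt1* and *Olfm2* are the only genes of the 3 lists that passed in any of the 9 comparisons. Of 6 assembly factor genes, among them *Frrs1l* and *Cpt1c*, whose products take part in building the receptor in the endoplasmic reticulum, none passed, and those with the smallest p in this comparison were *Abhd6* and *Sacm1l*. Over the 25 genes of the 3 lists, 11 had an unadjusted p under 0.05 in the averaged genotype comparison, beside 29.4% of all genes, 9 had a higher mean in KO mice, and the median log2 fold change was -0.05, against 0.00 over all genes. In Veh-K/W, 3 of the 25 had an unadjusted p under 0.05, led by *Prrt1* and *Olfm2*, beside 14.4% of all genes. In Mem-K/W there were 5, led by *Olfm2* and *Olfm1*, beside 21% of all genes, and in KO-M/WT-V 9, led by *Olfm2* and *Shisa8*, beside 25.9%. In KO-M/V there were 2, *Shisa6* and *Gsg1l*, beside 8.88%, and in WT-M/KO-V 4, led by *Prrt1* and *Syndig1*, beside 8.94%. There were 0 by limma in WT-M/V, in the averaged memantine comparison and in the interaction, where 3.97%, 8.68% and 4.76% of all genes had such a p.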

How the data were processed

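RNA-seq of poly-A RNA was done by the authors with an Illumina TruSeq mRNA kit. The methods of the study do not say whether the libraries keep the strand, so reads of overlapping antisense genes may not be told apart. The deposited signal values are gene-level normalized counts: the authors estimated transcript abundance with Salmon 1.1.0 on GRCm38, summed it to genes and divided it by DESeq2 factors (DESeq2 1.26.0 and R 3.6.2 in the submitters' processing notes); the annotation release is not given in the sources used here. Salmon divides shared reads between paralogs, and splice forms such as flip and flop are not separated. Symbols and positions came from GENCODE M21 (19295 of 19312 genes). Whole reads per mouse are unknown, so precision is given by the spread between mice.

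Values were tested as log2(value + 1) with limma 3.58.1 (R 4.3.3; variance trend) for genes with a mean of at least 10, each pair of groups on its own 6 mice, and averaged and interaction contrasts on all 12. Fold changes are on this log2(value + 1) scale. P-values were two-sided and Benjamini-Hochberg adjusted over all genes tested, with calls at 0.05. Scripts were tested on simulated data. The 10 genes, the pathway lists, the markers and the tests were chosen with earlier results of these data known. All 10 genes are described; listed pathway genes are named where called, or else the 2 with the smallest p. Alternatives were another pseudocount (5), filters (none or 50), median centring, no variance trend, 1 fit of all mice, a replicate block, each mouse left out, and centring within length bins. Promoter sequences came from RefSeq (GRCm38.p6).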

Additional observations from a re-analysis of the deposited data

How the results depend on the processing

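None of the 10 AMPA receptor genes was called in any of the 9 comparisons, and this count stayed at 0 with a pseudocount of 5, without a filter or with a filter at 50, with median centring, without a variance trend and with centring within length bins. In 1 fit of all 12 mice, 1 gene was called in KO-M/WT-V (*Gria4*). Leaving out 1 mouse gave 0 to 2 called genes in Mem-K/W, in KO-M/WT-V and in the averaged genotype comparison, and 0 in the other comparisons; the number of all genes called in the averaged genotype comparison ran from 528 to 3263 over the 19 settings, in Mem-K/W from 2 to 1911 and in KO-M/WT-V from 1 to 2490 over 14 settings each. Of the 23 fold changes given for the 10 genes, 1 changed sign on leaving out a mouse: *Cnih2* in WT-M/V, which ranged from -0.18 to 0.00 (0.0047 without WT-Veh replicate 3). Of the 67 others, not given singly, 34 changed sign on leaving out a mouse, the largest of them 0.107 in size. Under the other settings 5 of them changed sign, the largest 0.00898 in size. With a replicate block 0 of the 10 genes were called in each comparison, so the block changed no call of these genes. Over all genes with a mean of at least 10, 0 of 18 same-numbered pairs of mice deviated together with r over 0.1 (-0.175 to 0.0802). A factor shared by same-numbered mice that acts on only some genes could be missed by such a correlation. Standard errors of the log2 fold changes ran from 0.04 to 0.13 with 3 mice per group, beside log2 fold changes from -0.28 to 0.24. The cause of the dependence on single mice was not tested.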
